A study of Mus musculus with 6 samples.

Results

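The 928 kept wells of cells sorted as fibroblasts from AOM/DSS colon tumors included pericyte-like wells and wells with neutrophil genes. Of these 928 wells, 109 (11.7%) fell into a class marked by *Sfrp4*, *Ptx3*, *Gdf10*, *Pcolce2*, *Pi16* and *Inmt*. The 109 wells are described here as iCAF-like *Pi16*, *Ptx3* and *Sfrp4* fibroblasts. They were selected on the number of these 6 genes with a count in the well, which had to be at least 3 and above the number detected from each of 3 other sets of 6 genes, those of *Cxcl13* and *Grem1* fibroblasts (145 wells), telocyte-like fibroblasts (112 wells) and pericyte-like cells (92 wells). Wells with 3 or more counts of *Myoc* and *Angptl7* together were left out. Kept wells had 100 to 6000 genes, under 10% mitochondrial transcripts and at most 1 rounded transcript of *Ptprc* or *Epcam*. The gene sets came from clusters of these same cells, so that any level of the selected wells against other wells is a description and was not tested.

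Azoxymethane (AOM), a colon carcinogen, and dextran sulfate sodium (DSS), which injures the colonic epithelium, had been given to 3 FibCtrl mice (*Zeb1* fl/fl, Col6a1Cre transgene negative) and 3 FibΔZeb1 mice (*Zeb1* fl/fl, Col6a1Cre transgene positive). The floxed *Zeb1* allele was thus common to both groups, and Cre came from a constitutive *Col6a1* transgene, on a C57BL/6 background. Cells negative for EPCAM, CD45 and CD31 were sorted into the 384 wells of 1 plate per mouse, and each mouse is named by its plate, which makes mice 1, 3 and 4 FibCtrl and mice 2, 5 and 6 FibΔZeb1. Plate and mouse cannot be told apart, all plates use the same 384 well barcodes, and the plate of mouse 6 came from another sequencing run. The selected wells had a median of 11777 transcripts and 3269 genes, against medians of 13675, 15100 and 11052 transcripts in *Cxcl13* and *Grem1*, telocyte-like and pericyte-like wells. Levels are given as CPM, the counts of a gene scaled to 1000000 transcripts, summed over the wells of a mouse, with spike-in RNA left out.

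*Pi16*-expressing fibroblasts are known from the adventitia around vessels and from the submucosa of many organs, where they carry CD34 and Ly6A and are regarded as a reserve from which more specialized fibroblasts can arise. Inflammatory CAFs (iCAFs) are fibroblasts of tumors that secrete cytokines, chemokines and complement, and are set apart from contractile myofibroblastic CAFs (myCAFs). ZEB1 is a zinc finger transcription factor that binds E-box motifs and is known as an inducer of epithelial-mesenchymal transition.

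The selected fibroblasts were found in all 6 mice, but in very different numbers. There were 41, 4 and 5 wells in FibCtrl mice 1, 3 and 4 and 16, 42 and 1 wells in FibΔZeb1 mice 2, 5 and 6, so that mice 1 and 5 held 83 of the 109 (76.1%). As a share of kept wells they made up 20% (95% Wilson interval 15.1 to 26.0) in mouse 1, 3.64% (1.42 to 8.98) in mouse 3, 4.59% (1.98 to 10.3) in mouse 4, 6.15% (3.82 to 9.76) in mouse 2, 21.2% (16.1 to 27.4) in mouse 5 and 2.17% (0.385 to 11.3) in mouse 6. Each genotype thus had 1 mouse with a high share and 2 with low shares, and the groups overlapped. The mean was 9.41% ± 9.19 (SD, n = 3) in FibCtrl and 9.85% ± 10.0 (SD, n = 3) in FibΔZeb1 mice, a difference of 0.44 percentage points (exact two-sided permutation test over mice, p = 0.90, where 3 against 3 mice cannot give less than 0.10). Intervals cover counting error only.

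Among wells given to the 3 fibroblast classes, the share was 35.04% (27.0 to 44.0), 26.7% (10.9 to 52.0) and 10.6% (4.63 to 22.6) in FibCtrl mice 1, 3 and 4. In FibΔZeb1 mice 2, 5 and 6 it was 13.3% (8.38 to 20.6), 76.4% (63.7 to 85.6) and 8.33% (1.49 to 35.4). Mouse 5 stood above all other mice, with 42 of its 55 wells of the 3 classes. These 55 are not all of its fibroblasts, since 8 further wells met the set rule but were left out for *Myoc* and *Angptl7*. The means of 24.1% ± 12.4 (SD, n = 3) and 32.7% ± 37.9 (SD, n = 3) differed by 8.56 percentage points (exact two-sided permutation test, p = 0.90), and the difference was -13.3 points without mouse 5.

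**Figure D1:**
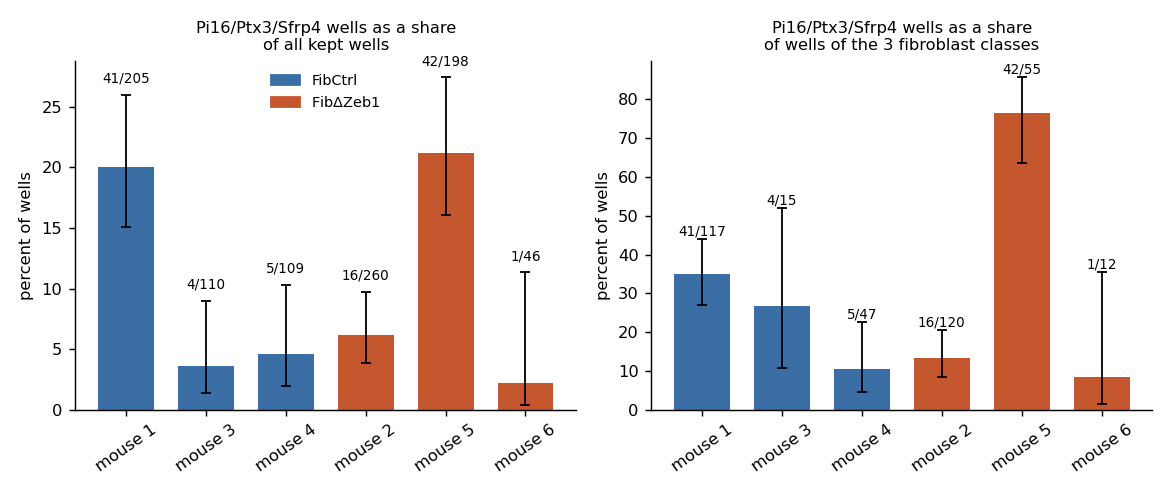
Bars give, for each mouse, the wells of iCAF-like *Pi16*, *Ptx3* and *Sfrp4* fibroblasts as a percent of kept wells (left) and of wells of the 3 fibroblast classes (right), with 95% Wilson intervals as error bars and the number of wells above. Mouse 1 (FibCtrl, 20%) and mouse 5 (FibΔZeb1, 21.2%) exceed the other 4 mice in the left panel, and mouse 5 reaches 76.4% in the right panel.

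The 6 genes of the selection have different roles. *Sfrp4* encodes a secreted Wnt antagonist, *Ptx3* a pentraxin of innate immunity and of the hyaluronan matrix, *Gdf10* a TGF-β family ligand, *Pcolce2* an enhancer of procollagen C-proteinase, *Pi16* a peptidase inhibitor and *Inmt* a methyltransferase. *Pcolce2* was detected in most of the selected wells (100 of 109, 91.7%), followed by *Pi16* (82, 75.2%), *Gdf10* (64, 58.7%), *Sfrp4* and *Inmt* (63 each, 57.8%) and *Ptx3* (51, 46.8%). Because these genes chose the wells, the shares describe how the selection was met. All 6 were found together in 5 wells, 5 of them in 24, 4 in 33 and 3 in 47.

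The selection genes varied between mice. *Sfrp4* was at 1469, 69.4 and 110 CPM in the summed wells of FibCtrl mice 1, 3 and 4 and at 675, 459 and 0 CPM in FibΔZeb1 mice 2, 5 and 6. *Ptx3* was at 1251, 86.7 and 261 CPM and at 137, 206 and 0 CPM in the same order. Mouse 1 was the highest for both genes, and the single well of mouse 6 had no count of either. *Pi16* was at 288, 278 and 1764 CPM in mice 1, 3 and 4 and at 210, 485 and 118 CPM in mice 2, 5 and 6. *Inmt* was at 269, 122 and 0 CPM and at 77.1, 651 and 0 CPM. *Pi16* was thus highest in mouse 4, which had no *Inmt* count in its 5 wells, whereas mouse 5 was highest for *Inmt*. *Gdf10* ranged from 72.8 CPM (mouse 2) to 946 CPM (mouse 6, 1 well) and *Pcolce2* from 137 CPM (mice 2 and 4) to 413 CPM (mouse 5).

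Single wells differed more than the sums. *Sfrp4* had a median of 82.8 CPM over the 109 wells with a range of 0 to 8055 CPM, and 1 well of mouse 1 held 20.04% of all its counts. *Pi16* had a median of 184 CPM (0 to 4797), with 19.1% of the counts in 1 well of mouse 4, and *Ptx3* a median of 0 CPM (0 to 8723). *Pcolce2* was spread most evenly, with a median of 252 CPM (0 to 1713) and 4.76% of the counts in its top well. *Sfrp4* and *Ptx3* were found together in 28 wells, *Sfrp4* without *Ptx3* in 35 and *Ptx3* without *Sfrp4* in 23. *Pcolce2* and *Pi16* were found together in 76 wells.

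Shares of wells with a count depend on depth and on free RNA. When each well was thinned to 1000 molecular barcodes, *Sfrp4* was left in 28.4% of the selected wells, *Pcolce2* in 27.5%, *Ptx3* in 25.7%, *Inmt* in 24.8%, *Pi16* in 22.02% and *Gdf10* in 17.4%. The background was read in kept wells of none of the 4 classes that held at least 3 neutrophil genes (225 wells, median 1011 transcripts). There *Pi16* had a count in 10.2% of wells and in 7.96% of the 113 that could be thinned, which was the largest background among the 6 genes. *Ptx3* and *Gdf10* had none in these 225 wells. In thinned pericyte-like wells the shares of the 6 genes lay between 0% and 2.17%.

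Near the threshold, 34 kept wells had 2 of the 6 genes and no other set as high, and 14 had 3 or more but another set as high or higher. Wells with 3, 4 and 5 selection genes had 7458, 7625 and 8623 CPM of *C3* and 3147, 3367 and 4363 CPM of *Dpt*, against 5434 and 3400 CPM in the 34 wells just outside. *Mfap5* was at 785, 1076 and 627 CPM in the wells with 3, 4 and 5 genes and at 716 CPM just outside. *Dpt* and *Mfap5* just outside thus lay within the range of the wells with 3, 4 and 5 genes. *C3*, *Cd34* (859 CPM) and *Col1a2* (8684 CPM) were lower just outside than in any of these 3 groups. The wells just outside had a median of 7761 transcripts, against 10752, 11777 and 14566 in wells with 3, 4 and 5 genes. These levels are pooled over mice. Of the 34 wells outside, 17 came from mouse 5 and 11 from mouse 1.

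Promoter windows of 5 of the 6 genes were given by RefSeq (GRCm38.p6, 250 bases before to 50 after the start of the gene), and *Sfrp4* had no entry. The ZEB1 E-box was searched as CAGGTG on either strand, that is CAGGTG or CACCTG. The windows of *Ptx3*, *Gdf10*, *Pcolce2* and *Pi16* had no match to these letters, and that of *Inmt* (chr6:55174941-55175240, minus strand) had 1, which starts 138 bases before the start of the gene. Of all 32851 windows in the table, 20.2% held a match. The *Inmt* window is shown because it is the sole match among the selection genes, 5′ to 3′ with the match in capitals.
Inmt: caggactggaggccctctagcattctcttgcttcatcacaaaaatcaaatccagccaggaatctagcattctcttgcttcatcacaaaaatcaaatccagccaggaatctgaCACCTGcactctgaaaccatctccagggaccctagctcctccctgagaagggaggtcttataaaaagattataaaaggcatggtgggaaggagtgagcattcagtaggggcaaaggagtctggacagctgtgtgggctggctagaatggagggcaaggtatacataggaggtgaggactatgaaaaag

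**Figure D2:**
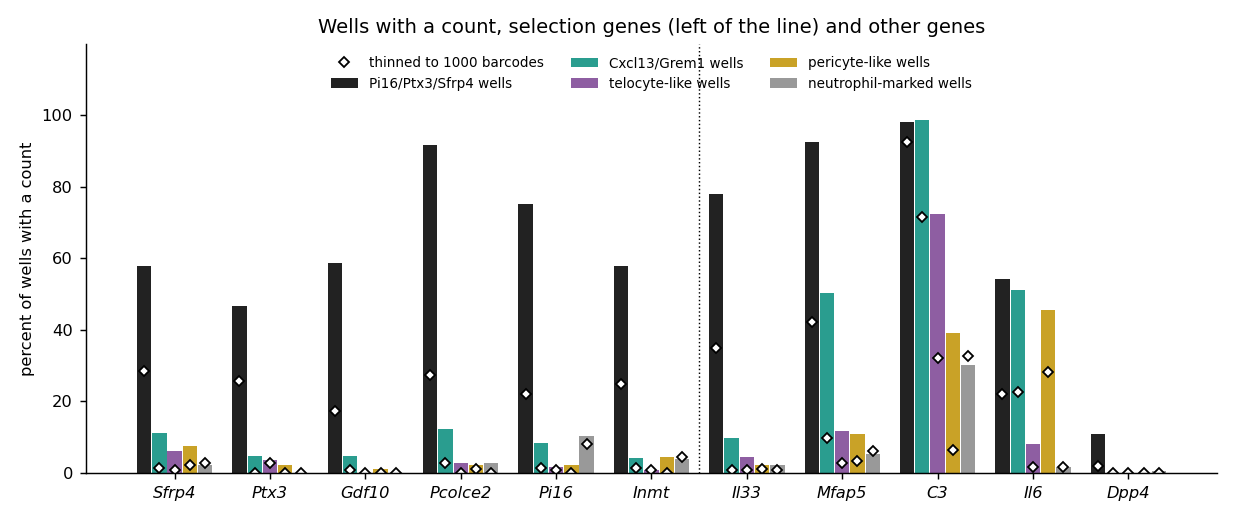
Bars give the percent of wells with a count for the 6 selection genes (left of the dotted line) and 5 other genes, in the selected wells, in 3 other classes and in neutrophil-marked wells, and open diamonds give the same after thinning to 1000 barcodes. *Il33*, which took no part in the selection, had a count in 78.0% of the selected wells and in 9.66% of *Cxcl13* and *Grem1* wells, whereas *Il6* was found in 54.1% and 51.0%.

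To find what else set these fibroblasts apart, their levels were divided by those of *Cxcl13* and *Grem1* wells and of telocyte-like wells of the same mouse, in the 4 mice with at least 5 wells of each class (mice 1, 2, 4 and 5). A gene is called higher or lower here if it differed at least 2-fold in the same direction in every one of the 4 mice, on the scale of log2(CPM + 10), which understates the difference of low genes. Of 9752 genes with at least 20 counts, 65 (0.667%) were higher and 119 (1.22%) lower than in *Cxcl13* and *Grem1* wells. Of 9665 genes, 168 (1.74%) were higher and 303 (3.14%) lower than in telocyte-like wells. In both comparisons together, 41 of 9321 genes (0.44%) were higher and 75 (0.805%) lower. Genes that defined the classes were not taken out of these counts. Among the 75 are *Edil3* of the *Cxcl13* and *Grem1* set and *Bmp7* of the telocyte-like set, so that the rule bears on their difference. Both comparisons use the same selected wells. The shares over all genes are the background against which the counts per gene list below are to be read. The median over all genes was -0.12 and -0.19 on the log2 scale.

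Of the 15 leading genes of this description, 5 were selection genes. The others were *Il33*, *Lrrn4cl*, *Anxa8*, *Prss23*, *Ptgis*, *Mfap5*, *Gas1*, *Uap1*, *Ifi204* and *Foxp2*. *Il33*, an alarmin of the IL-1 family that is stored in the nucleus, was at 364 and 606 CPM in FibCtrl mice 1 and 4 and at 283 and 418 CPM in FibΔZeb1 mice 2 and 5. It did not exceed 21.4 CPM in *Cxcl13* and *Grem1* wells or 19.8 CPM in telocyte-like wells of any of these mice. The 4 values of *Il33* thus lay above all 8 values of the other classes, and 85 of the 109 wells had a count. After thinning, 34.9% of the selected wells had a count of *Il33*, against 0.69%, 0.893% and 1.09% of the other 3 classes.

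*Mfap5*, a glycoprotein of elastic microfibrils, was at 738, 381, 1074 and 1265 CPM in mice 1, 2, 4 and 5. It reached at most 168 CPM in *Cxcl13* and *Grem1* wells and 98.1 CPM in telocyte-like wells. It was not particular to the selected wells, with 593 CPM in the 13 wells left out for *Myoc* and *Angptl7*. In the 34 wells with 2 selection genes it was at 716 CPM. *Ptgis*, which encodes prostacyclin synthase, was at 195, 235, 179 and 197 CPM and was the most even of the leading genes between mice, against at most 37.2 and 17.4 CPM. *Prss23*, a secreted serine protease, was at 611, 167, 316 and 302 CPM in the same mice. *Gas1*, a membrane protein that binds Hedgehog ligands, was at 331, 163, 247 and 895 CPM, highest in mouse 5. *Anxa8*, an annexin, was at 43.9, 279, 481 and 133 CPM but was detected in 34.9% of wells, the lowest share among these genes. *Uap1*, which makes the UDP-N-acetylglucosamine used for hyaluronan, was at 665, 308, 619 and 479 CPM. The transcription factor *Foxp2* and the interferon-inducible *Ifi204* were lower, with means of 102 ± 43.8 and 147 ± 69.6 CPM (SD, n = 4), and *Lrrn4cl* had 255 ± 176 CPM (SD, n = 4).

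The 10 lowest genes were *Adamdec1*, *Gm13889*, *Col18a1*, *Syt13*, *Wnt4*, *Epas1*, *Sdc1*, *Ncam1*, *Sept4* and *Fgfr2*. *Adamdec1*, a metalloproteinase of lamina propria cells, was at 14.1, 21.4, 13.7 and 4.4 CPM in mice 1, 2, 4 and 5, whereas it was at 279 to 3925 CPM in *Cxcl13* and *Grem1* wells and at 2501 to 3624 CPM in telocyte-like wells. *Col18a1*, a collagen of basement membranes, was at 47.4 to 98.4 CPM in the selected wells and at no less than 354 and 1480 CPM in the other classes. *Wnt4*, a Wnt ligand, did not exceed 21.4 CPM, against at least 269 and 127 CPM. *Epas1*, which encodes HIF-2α, was at 13.7 to 34.2 CPM against at least 296 and 340 CPM, and *Fgfr2*, a receptor of fibroblast growth factors, at 6.7 to 17.6 CPM against at least 297 and 133 CPM. For each of these genes the mice did not overlap between classes.

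**Figure D3:**
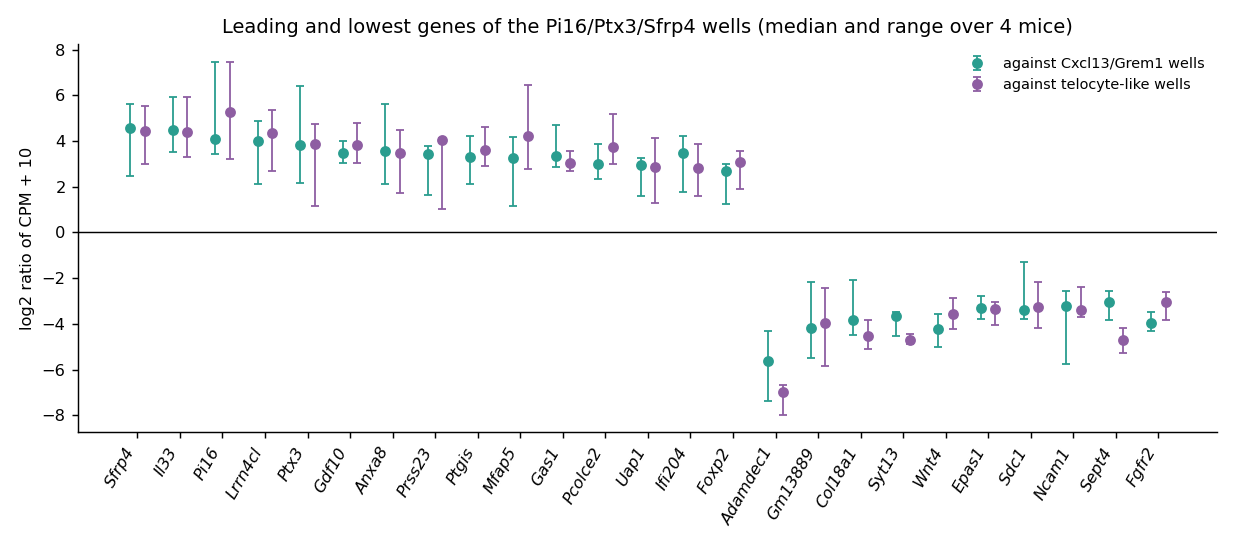
Points give the median and lines the range, over mice 1, 2, 4 and 5, of the log2 ratio of CPM + 10 in the selected wells to *Cxcl13* and *Grem1* wells and to telocyte-like wells, for the 15 leading and 10 lowest genes. All lines of the leading genes lie above 0 and all of the lowest genes below it, which is how the genes were chosen, and *Pi16* and *Ptx3* have among the widest ranges.

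The label was checked against marker lists, in all of which the 6 selection genes were left out. Of 14 iCAF markers, 13 had a count in at least 50% of the selected wells, and the list was at 15304 to 29216 summed CPM in mice 1, 2, 4 and 5, above the 9309 to 13031 CPM of *Cxcl13* and *Grem1* wells and the 4061 to 5108 CPM of telocyte-like wells. Against telocyte-like wells 9 of the 14 genes were higher and 1 lower (*Pdgfra*), with a median log2 ratio of 2.32. Against *Cxcl13* and *Grem1* wells 3 were higher (*C3*, *Ccl2* and *Ccl7*) and 0 lower, with a median of 0.78. *C3*, the central complement component, was at 9806, 4407, 5134 and 6930 CPM in mice 1, 2, 4 and 5, against 1496 to 3589 and 296 to 1102 CPM in the other classes. The chemokine *Ccl2* was at 2804, 1099, 802 and 1383 CPM and its neighbor *Ccl7* at 1795, 653, 400 and 962 CPM, both highest in mouse 1. *Il6*, after which the subtype is often characterized, was at 702, 253, 41.2 and 360 CPM, which overlapped the 113 to 316 CPM of *Cxcl13* and *Grem1* wells, and after thinning 22.02% of the selected and 22.8% of those wells had a count.

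Markers of universal adventitial fibroblasts were present as well. Of 12 such genes in the files, 10 had a count in at least 50% of the wells, 7 were higher than in telocyte-like wells (median log2 ratio 1.88) and 1, *Mfap5*, was higher than in *Cxcl13* and *Grem1* wells (median 0.73). *Dpt*, a matrix protein of the dermatopontin type, was at 2029 to 4120 CPM, the surface proteins *Ly6a* at 1679 to 3028 CPM, *Cd34* at 656 to 1295 CPM and *Cd55*, an inhibitor of complement, at 618 to 1767 CPM. *Cd34* had a count in 99.1% of the selected wells, in 89.7% of *Cxcl13* and *Grem1* wells and in 16.1% of telocyte-like wells. *Dpp4*, a further marker of this state, had a count in 12 wells (11.0%), which all came from mice 1 (4 wells) and 5 (8 wells), and in 0 of 145, 0 of 112 and 0 of 92 wells of the other classes.

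By contrast, of 12 myCAF markers 2 had a count in at least 50% of wells. Of 11 with enough counts, 8 were lower than in telocyte-like wells (*Acta2*, *Tagln*, *Myl9*, *Tpm1*, *Tpm2*, *Mylk*, *Tnc* and *Col12a1*, median log2 ratio -3.78), and 0 were lower than in *Cxcl13* and *Grem1* wells by the 2-fold rule (median -1.01). *Acta2*, the actin of smooth muscle and myofibroblasts, was at 89.6, 180, 41.2 and 15.5 CPM in mice 1, 2, 4 and 5 against 857 to 2486 CPM in telocyte-like wells. *Postn*, a matricellular protein, was at 1275, 381, 124 and 644 CPM and was the most abundant gene of the list. Antigen-presenting CAF markers were near 0, with *Cd74*, *H2-Aa*, *H2-Ab1* and *H2-Eb1* at means of 1.5 to 4.1 CPM and *Slpi* at 41.5 CPM, of which 76.4% of the counts came from 1 well of mouse 2.

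Most secreted and inflammatory genes did not pass the 2-fold rule, so that they were not raised as a block. Over all genes, however, only 0.667% were higher than in *Cxcl13* and *Grem1* wells and 1.74% higher than in telocyte-like wells. The shares of complement and chemokine genes lay above these. Of 12 complement and acute phase genes with enough counts, 1 was higher than in *Cxcl13* and *Grem1* wells (*C3*) and 3 higher than in telocyte-like wells (*C3*, *Cfb* and *Cd55*), and *Serping1*, the C1 inhibitor, was at 2195 to 3269 CPM in the selected and at 2464 to 3220 CPM in *Cxcl13* and *Grem1* wells. Of 13 chemokines, 2 and 3 were higher in these comparisons and 0 and 1 lower. The neutrophil-attracting *Cxcl1* was at 4372, 2452, 1869 and 2005 CPM, against 405 to 1590 CPM in *Cxcl13* and *Grem1* wells, and did not reach 2-fold in every mouse there. *Cxcl12*, the ligand of CXCR4, was at 716 to 1327 CPM and overlapped the 1279 to 2428 CPM of those wells. *Cxcl14* was lower than in telocyte-like wells, with 80.9, 59.9, 634 and 33.3 CPM against 1444 to 3492 CPM.

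Of 15 genes of IL-6, IL-1 and TNF signaling, *Il33* alone was higher in the first comparison and *Il33* and *Il6* in the second, while *Il1r1* and *Lifr*, receptor chains for IL-1 and LIF, were lower than in telocyte-like wells. Among 11 NF-κB subunits and feedback genes, 0 and 1 (*Nfkbiz*) were higher, with median log2 ratios of 0.42 and 0.96. Immediate early genes, which are also induced when tissue is dissociated, were at 13645 to 29569 summed CPM, against 9971 to 25158 and 9352 to 12787 CPM. Of 14 such genes, 0 were higher than in *Cxcl13* and *Grem1* wells and 3 (*Egr2*, *Atf3* and *Nr4a1*) higher than in telocyte-like wells. Of 14 interferon response genes, 0 were higher in either comparison. *B2m*, the light chain of MHC class I, was lower than in *Cxcl13* and *Grem1* wells, and *Ifitm1*, which was lower in both comparisons, was at 285, 489, 138 and 71.0 CPM against at least 1634 and 817 CPM.

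Among genes of the matrix, *Tnfaip6*, whose product TSG-6 transfers proteins onto hyaluronan, was at 3561, 1862, 3169 and 1811 CPM in mice 1, 2, 4 and 5, against 156 to 563 CPM in *Cxcl13* and *Grem1* wells and 63.0 to 174 CPM in telocyte-like wells. It was detected in 106 of the 109 wells. The hyaluronan synthase *Has1* was at 1605, 1051, 827 and 1221 CPM against 49.6 to 625 and 16.8 to 87.2 CPM. *Ugdh*, which is not in the hyaluronan list and makes the UDP-glucuronate used for hyaluronan, was at 2130, 690, 2022 and 798 CPM against 184 to 370 and 105 to 120 CPM. None of the 3 genes overlapped the other classes. Of 6 hyaluronan genes with enough counts, 1 was higher in the first comparison and 2 in the second, and 0 were lower, with medians of 1.15 and 1.34.

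Of 12 fibrillar collagen and processing genes, 0 were higher and 0 lower in either comparison (median log2 ratios 0.28 and 0.12). *Col3a1* was at 11723 to 26729 CPM, *Col1a2* at 9044 to 12332 CPM and *Col1a1* at 5789 to 9690 CPM, and *Col1a2* and *Col1a1* overlapped both other classes. Among the other collagens, *Col14a1*, which binds collagen fibrils, was at 1337, 660, 1725 and 662 CPM against 112 to 367 and 8.7 to 76.3 CPM, and *Col8a1* at 378 to 1073 CPM against 49.6 to 260 and 8.7 to 52.0 CPM. *Col6a3* was higher and *Col15a1* and *Col18a1* lower than in *Cxcl13* and *Grem1* wells, and *Col6a5*, *Col7a1*, *Col12a1* and *Col18a1* were lower than in telocyte-like wells. Of 8 small leucine-rich proteoglycans, *Lum* and *Aspn* were higher than in telocyte-like wells and 0 in the other comparison, and *Dcn*, which encodes decorin, was at 9551 to 20891 CPM.

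Of 17 genes of elastic fibers, 6 (*Eln*, *Fbln1*, *Fbln2*, *Mfap5*, *Emilin2* and *Ltbp4*) were higher and *Emilin1* lower than in telocyte-like wells (median log2 ratio 0.46), while of 16 genes *Mfap5* alone was higher than in *Cxcl13* and *Grem1* wells. *Eln*, which encodes elastin, was at 802, 901, 1767 and 2276 CPM, but 25.2% of all its counts came from 1 well of mouse 5. Of 15 matrix glycoproteins, *Tnxb*, *Sparcl1* and *Gas6* were higher and *Tnc* lower than in telocyte-like wells, and 0 of 14 passed the rule in the other comparison. Of 18 proteinases and inhibitors, *Adamts1*, *Adamts5* and *Serpinf1* were higher and *Mmp9*, *Mmp13* and *Serpine2* lower than in telocyte-like wells, and of 16 *Plat*, the tissue plasminogen activator, was higher than in *Cxcl13* and *Grem1* wells. *Mmp2*, a gelatinase, was at 1767 to 3450 CPM and overlapped both classes.

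Few ligands and modulators passed the 2-fold rule. *Bmp4* was at 292, 476, 68.7 and 195 CPM in mice 1, 2, 4 and 5, against 1267 to 1495 CPM in *Cxcl13* and *Grem1* wells and 1686 to 1936 CPM in telocyte-like wells, and *Bmp5* did not exceed 13.7 CPM. Of 15 genes of BMP, TGF-β and activin signaling, *Fst*, which encodes follistatin, was higher and *Bmp4* and *Bmp5* lower in the first comparison. In the second, of 16 genes *Tgfbr3* was higher and *Bmp2*, *Bmp4*, *Bmp5* and *Tgfbi* lower. Of 15 and 16 Wnt ligands and modulators, 3 were lower in each (*Wnt4*, *Dkk3* and *Sfrp2*, and *Wnt4*, *Dkk3* and *Wif1*) and 0 higher. *Sfrp1*, a secreted Wnt antagonist, was at 1200, 3390, 1461 and 1387 CPM, so that *Sfrp1* and *Sfrp4* were the abundant genes of this family in the selected wells.

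Of 17 growth factors, *Figf*, which encodes VEGF-D, was higher and *Hgf*, *Fgf10* and *Vegfc* lower than in *Cxcl13* and *Grem1* wells. Of 19, *Figf* and *Fgf18* were higher and *Hgf* and *Igf2* lower than in telocyte-like wells. *Figf* was at 195, 98.4, 206 and 282 CPM against at most 47.8 and 78.4 CPM. *Igfbp6*, an IGF binding protein with preference for IGF2, was at 1159, 639, 550 and 1100 CPM against at most 238 and 253 CPM and was the only 1 of 5 such genes that passed the rule in either comparison. Of 7 prostaglandin genes *Ptgis* was higher in both, and *Ptger2* was lower in the second. Of 12 retinoid and lipid genes, 0 were higher and *Rbp4*, *Apoe* and *Ces1d* lower in the first, and *Adh1* was higher and *Ces1d* and *Lepr* lower in the second. Of neuropeptide and related genes 0 of 4 and 0 of 5 were higher. *Nrg1*, the 1 lower gene of this list in the second, is a selection gene of the telocyte-like class, so that the rule bears on its difference. *Penk*, which encodes proenkephalin, had a count in 52 of the 109 wells and in 3.45%, 1.79% and 1.09% of the other classes, with 179, 25.7, 0 and 175 CPM in mice 1, 2, 4 and 5. In neutrophil-marked wells 4.0% had a count of *Penk*.

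Of 22 fibroblast transcription factors, *Ebf1*, *Osr2* and *Prrx1* were higher and *Snai2* and *Tcf21* lower than in *Cxcl13* and *Grem1* wells. Against telocyte-like wells *Ebf1*, *Osr2*, *Klf4* and *Creb5* were higher and *Snai2*, *Tcf4*, *Meox1* and *Foxl1* lower. *Ebf1* was at 86.1, 72.8, 68.7 and 79.8 CPM in mice 1, 2, 4 and 5 and did not exceed 17.4 CPM in either class. *Klf4* had a count in all 109 wells, with 2086, 2860, 2182 and 3086 CPM against 1164 to 1831 and 193 to 356 CPM. *Snai2*, a repressor of the Snail family, was at 0 to 11.1 CPM against at least 66.7 and 69.6 CPM. Of hypoxia and glycolysis genes, 0 of 13 and 1 of 14 (*Hk2*) were higher. None of 5 and 7 cell cycle genes and none of 7 and 6 Hox genes passed the rule in either direction, and the proliferation marker *Mki67* was at 12.8 to 27.5 CPM.

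**Figure D4:**
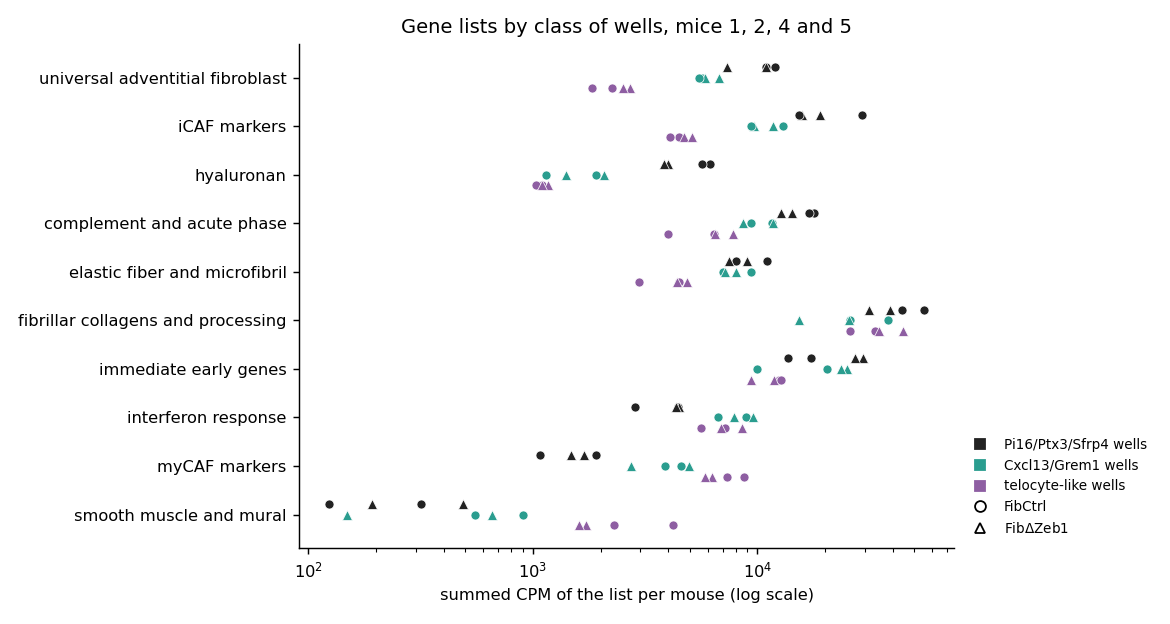
Points give the summed CPM of a gene list in 1 mouse (circles FibCtrl, triangles FibΔZeb1) on a log axis, for the selected wells, *Cxcl13* and *Grem1* wells and telocyte-like wells of mice 1, 2, 4 and 5. The iCAF, adventitial and hyaluronan lists are higher in the selected wells than in both other classes in every mouse. The myCAF list is lower than in both in every mouse. The fibrillar collagen list is higher than in *Cxcl13* and *Grem1* wells of the same mouse in every mouse. Its range over the mice overlaps with both classes. The range of the immediate early list overlaps with *Cxcl13* and *Grem1* wells but not with telocyte-like wells.

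General fibroblast genes were abundant, with 10 of 11 detected in at least 50% of wells, at 53647 to 67301 summed CPM in mice 1, 2, 4 and 5. Markers of other cell types were at low levels in these 4 mice. The macrophage list (9 genes in the files, 3 without a count) was at 12.8 to 27.5 summed CPM, the lymphocyte list at 0 to 8.56, the endothelial list at 34.2 to 112, the epithelial list at 0 to 151, the mesothelial list at 0 to 19.96, the glial list at 0 to 1.76 and the adipocyte list at 0 to 27.5 CPM. The endothelial sum was mainly *Tek* (54.6 CPM on average), while *Pecam1* and *Kdr* were at 3.9 and 3.5 CPM. No count in the selected wells was found for 4 of 7 lymphocyte, 2 of 9 endothelial, 5 of 7 mesothelial, 6 of 7 glial and 1 of 3 adipocyte genes, among them *Msln* and *Upk3b* of the mesothelium and *Adipoq* of adipocytes. Each of the 8 epithelial genes had at least 1 count, led by *Krt8* with 42.1 CPM on average. In mouse 3, with 4 selected wells, the macrophage list was at 139, the endothelial list at 139 and the neutrophil list at 555 CPM. In mouse 6, with 1 selected well, the lymphocyte and endothelial lists were at 118 each, the mesothelial list at 177, the epithelial list at 295 and the neutrophil list at 354 CPM. These levels were above those of the other 4 mice, and neither mouse entered the ratios to other classes or the genotype fit. In the well of mouse 6, 2 counts of *Pi16* made 118 CPM, so that its list sums are a few counts each. In mice 1, 2, 4 and 5 neutrophil genes were at 68.7 to 222 CPM, against 94.4 to 205 CPM in *Cxcl13* and *Grem1* wells and 127 to 428 CPM in telocyte-like wells. Smooth muscle and mural genes were at 124 to 488 CPM against 149 to 899 and 1598 to 4212 CPM.

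Within the selected fibroblasts, the genotypes were compared on counts summed per mouse, in the 4 mice with at least 5 wells (FibCtrl mice 1 and 4, FibΔZeb1 mice 2 and 5). *Xist* was found in mice 1 and 2 and *Ddx3y* in mice 4 and 5, so that each genotype had 1 mouse of each pattern. *Zeb1* was at 172, 156 and 179 CPM in FibCtrl mice 1, 3 and 4 and at 107, 90.9 and 59.0 CPM in FibΔZeb1 mice 2, 5 and 6. The groups did not overlap over all 6 mice (exact two-sided permutation test, p = 0.10, the smallest that 3 against 3 mice allow). However, mouse 3 had 4 wells and mouse 6 had 1. In the well of mouse 6, 2 counts of *Pi16* made 118 CPM, so that its *Zeb1* level lies at the floor of counting. In the fit of 4 mice the log2 fold change was -0.85 ± 0.37 (SE; edgeR unadjusted p = 0.046, adjusted p = 1.0). Counts come from the 3′ end of the transcript and the deleted part of *Zeb1* is not given in the sources used here, so that this level does not check the deletion.

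Of 4966 genes tested in the selected fibroblasts with edgeR's quasi-likelihood test, 0 (0.0%) passed the Benjamini-Hochberg adjusted threshold of 0.05. At an unadjusted p under 0.05 there were 107 genes (2.15%), of which 52 were higher and 55 lower in FibΔZeb1, and DESeq2 also called 0, with 46 at an unadjusted p under 0.05. Without overlap of the 4 mice, 853 genes (17.2%) were higher and 600 (12.1%) lower in FibΔZeb1. With 2 against 2 mice, values separate often by chance alone. Absence of overlap is therefore no sign of a genotype difference, and these shares serve only as a background.

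All genes named next failed the correction in the 4 mice after the filter on low counts. Without that filter *Sfrp2*, *Pla1a*, *Wisp2* and *Npy1r* passed it (edgeR adjusted p = 0.00019, 0.0002, 0.00028 and 0.034). The 5 genes with the smallest unadjusted p among those higher in FibΔZeb1 without overlap were *Sfrp2*, *Pla1a*, *Wisp2*, *Fos* and *Cd109*. *Sfrp2*, a secreted modulator of Wnt signaling, was at 35.1 and 13.7 CPM in FibCtrl mice 1 and 4 and at 218 and 268 CPM in FibΔZeb1 mice 2 and 5, a log2 fold change of 2.94 ± 0.48 (SE; edgeR unadjusted p = 0.00014, adjusted p = 0.671). FibCtrl mouse 3 was at 17.4 CPM and the single well of FibΔZeb1 mouse 6 at 0 CPM. *Sfrp2* was found in 25.7% of wells, and 1 well of mouse 5 held 33.8% of its counts. *Pla1a*, a phospholipase, was at 5.27 and 13.7 against 68.5 and 129 CPM (3.87 ± 0.68, adjusted p = 0.671). *Wisp2*, a matricellular protein of the CCN family, was at 0 and 27.5 against 59.9 and 109 CPM, with 44.9% of its counts in 1 well of mouse 5.

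The 5 genes among those lower in FibΔZeb1 were *Clec11a*, *Ugdh*, *Npy1r*, *Ier5* and *Abl2*. *Ugdh* was at 2131 and 2020 CPM in FibCtrl mice 1 and 4 and at 689 and 798 CPM in FibΔZeb1 mice 2 and 5 (log2 fold change -1.49 ± 0.36 SE, edgeR adjusted p = 1.0), and FibCtrl mouse 3 with 4 wells was at 781 CPM, within the FibΔZeb1 range. *Npy1r*, a receptor of neuropeptide Y, was at 251 and 852 against 120 and 124 CPM (-2.08 ± 0.54), but mouse 6 was at 827 CPM. *Clec11a*, a secreted lectin, was at 98.4 and 68.7 against 12.8 and 22.2 CPM (-2.28 ± 0.52), and mouse 6 was at 177 CPM. With mice 3 and 6 included, *Ugdh*, *Npy1r* and *Clec11a* thus overlapped between the genotypes. When 1 mouse was left out, *Sfrp2* passed the threshold without mouse 1 (edgeR adjusted p = 0.00079), mouse 2 (0.002) or mouse 5 (0.01), and *Pla1a* without mouse 2 (0.00045) or mouse 4 (0.015). *Wisp2* lay between 1.74 and 8.15, *Fos* between 1.20 and 1.89 and *Npy1r* between -2.71 and -1.15. *Wisp2* had no count in mouse 1, so that 8.15, found without mouse 4, is no bound.

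Of the selection genes, *Ptx3* (-2.22 ± 0.66, edgeR unadjusted p = 0.0077) and *Gdf10* (-1.24 ± 0.45, unadjusted p = 0.021) were lower in FibΔZeb1 mice 2 and 5 without overlap, and both had an adjusted p of 1.0. FibCtrl mouse 3 (86.7 CPM of *Ptx3*) and FibΔZeb1 mouse 6 (946 CPM of *Gdf10*), which took no part in the fit, overlapped the other genotype. *Sfrp4* (-0.62 ± 0.81), *Pi16* (-1.44 ± 0.73), *Pcolce2* (0.08 ± 0.60) and *Inmt* (1.15 ± 1.05) overlapped between the 4 mice. Without mouse 1, which held 41 of the wells, *Sfrp4* turned to 2.43, *Pi16* was at -2.22 and *Inmt* at 9.59. Mouse 4 was then the only FibCtrl mouse in the fit, with 5 wells and no count of *Inmt*. Of its wells, 1 had 110 transcripts of *Pi16* and the others at most 10. *Ptx3* was at -2.95 without mouse 4, where 1 FibCtrl mouse remained. With the 4 mice but without the filter on low counts, *Ptx3* passed the adjusted threshold (-2.24, edgeR adjusted p = 0.0034).

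By list, the largest number of genes with the same direction was found for immediate early genes. Of 14 tested, 13 were higher in both FibΔZeb1 mice than in both FibCtrl mice, against 17.2% of all genes, and the median log2 fold change was 0.59 against 0.02 over all genes. Of the 14, *Fos*, *Fosb*, *Jun* and *Zfp36* had an unadjusted edgeR p under 0.05, against 2.15% of all genes, and 0 passed the adjusted threshold. *Fos* was at 1744 and 1237 CPM in FibCtrl mice 1 and 4 and at 4988 and 3712 CPM in FibΔZeb1 mice 2 and 5 (log2 fold change 1.5 ± 0.39 SE). FibCtrl mouse 3, however, was at 6370 CPM, and the summed list was at 17333, 30427 and 13645 CPM in FibCtrl mice 1, 3 and 4 and at 29569, 27267 and 10120 CPM in FibΔZeb1 mice 2, 5 and 6. With all 6 mice the groups overlapped. In *Cxcl13* and *Grem1* wells of mice 1, 4, 2 and 5 the same sum was 20415, 9971, 25158 and 23613 CPM, with the same order of genotypes, and in telocyte-like wells 12417, 12787, 11884 and 9352 CPM, with the opposite order.

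Fibrillar collagen and processing genes leaned the other way. Of 12 tested, 6 were lower in both FibΔZeb1 mice without overlap (12.1% of all genes), 0 were higher, 0 had an unadjusted p under 0.05, and the median was -0.48. *Col3a1* was at 16244 and 26739 CPM in FibCtrl mice 1 and 4 and at 11726 and 15010 CPM in FibΔZeb1 mice 2 and 5. *Col1a1* overlapped once mouse 3 (6318 CPM) was included. Summed over the list, FibCtrl mice 1, 3 and 4 were at 43904, 42665 and 55242 CPM. FibΔZeb1 mice 2, 5 and 6, the last with 1 well, were at 31336, 38881 and 28109 CPM. In *Cxcl13* and *Grem1* wells of mice 1, 4, 2 and 5 the sums were 25945, 38110, 25548 and 15255 CPM, with the same order. In telocyte-like wells they were 33246, 25752, 44360 and 34773 CPM, with the opposite order. Of 5 hyaluronan genes, *Tnfaip6* and *Cd44*, a hyaluronan receptor, were lower without overlap (12.1% of all genes). *Tnfaip6* was at 3563 and 3174 against 1862 and 1812 CPM and *Cd44* at 460 and 948 against 372 and 297 CPM. Their unadjusted edgeR p were 0.031 and 0.032, where 2.15% of all genes were under 0.05, and their adjusted p were 1.0. FibCtrl mouse 3, at 1215 CPM of *Tnfaip6* and 278 CPM of *Cd44*, was below FibΔZeb1 mice 2 and 5 for both, so that these genes overlapped once it was included. Without overlap, the iCAF list (13 tested, median -0.43) had 0 genes higher and 2 lower. The adventitial list (11 tested, -0.30) had 0 and 0 and the myCAF list (9 tested, 0.19) 1 and 0. Over all genes, 17.2% were higher and 12.1% lower without overlap. Each of these lists had 1 gene at an unadjusted edgeR p under 0.05, against 2.15% of all genes. Of 18 transcription factors, 7 were higher without overlap (17.2% of all genes), *Nr2f1*, *Nr2f2*, *Klf4*, *Prrx1*, *Osr1*, *Osr2* and *Zeb2*, and 1, *Zeb1*, was lower (12.1% of all genes). With mice 3 and 6 included, *Nr2f1* and *Zeb1* did not overlap and the other 6 did. For both, the level of mouse 6 rests on 1 well and lies at the floor of counting. *Nr2f1* (14.1 and 27.5 against 163 and 44.3 CPM) and *Nr2f2*, orphan nuclear receptors, had unadjusted edgeR p of 0.0078 and 0.034.

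**Figure D5:**
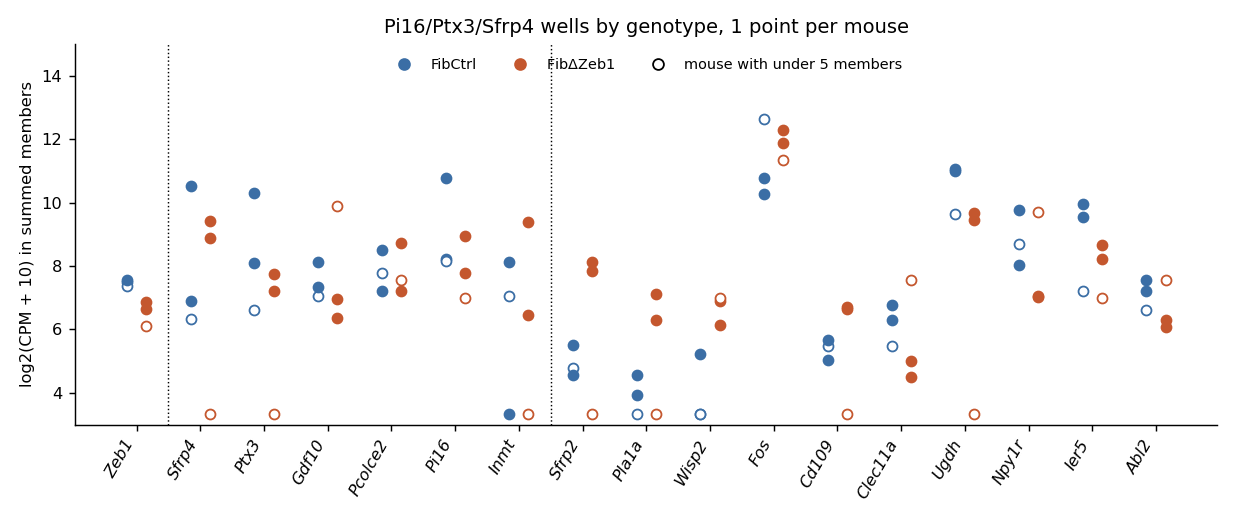
Points give log2(CPM + 10) of *Zeb1*, the 6 selection genes and the 10 genes of smallest unadjusted p in the summed wells of each mouse, blue for FibCtrl and orange for FibΔZeb1, with open points for mice 3 and 6, which had under 5 wells and took no part in the fit. *Zeb1* is lower in all 3 FibΔZeb1 mice, with mouse 6 resting on 1 well. Of the 10 genes of smallest unadjusted p, all except *Wisp2* overlap once the open points are included. The *Wisp2* level of mouse 6 also rests on 1 well.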

How the data were processed

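SORT-seq plates of 6 mice were analysed, 1 plate each. From the BWA alignment to GRCm38 named in the submitters' processing notes, the authors deposited barcode counts (whole counts of molecular barcodes per gene and well) and expected counts, that is transcript counts estimated from them correcting for barcodes drawn more than once. Both are unnormalized. Spike-ins (7.85% to 18.6% of transcripts) were left out. Doublets were not called, since cells were sorted singly.

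Samples were grouped by the genotype in their labels. Transcript counts were summed per mouse and class, rounded and given to the quasi-likelihood test of edgeR 4.0.16, after filterByExpr and TMM scaling and with Benjamini-Hochberg adjusted p-values, with DESeq2 1.42.0 as an alternative. The tests were tried on simulated data. Shares were compared by exact permutation over mice (scipy 1.17.1). Mice are separate animals. CPM beside the genotype test come from the rounded sums and can differ slightly from the others. Class ratios use a pseudocount of 10 CPM. Named were the selection genes, *Zeb1*, up to 5 abundant genes per list, the 15 leading and 10 lowest genes, and 5 genes per direction of genotype. Other list members, named because they passed the 2-fold rule, had no overlap or for other values, were picked after their values were seen. The selection, the 38 gene lists and the rules were chosen with earlier results of these data known. The alternatives were thinning, barcode counts, other selection limits, other normalization and filters, and leaving out each mouse.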

Additional observations from a re-analysis of the deposited data

Results flagged for a closer look

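Wells outside the quality limits held the same pattern. The set rule was met by 29 wells that the report did not use, 28 of which had 10% or more mitochondrial transcripts and 1 of which had more than 1 count of *Ptprc* or *Epcam*. They came from mouse 1 (16 wells), mouse 5 (9), mouse 2 (3) and mouse 4 (1), with a median of 4682 transcripts. *Pcolce2* had a count in 75.9%, *Pi16* in 72.4%, *Sfrp4* in 65.5% and *Gdf10* in 34.5% of these wells, and *C3* was at 5867 CPM. A further 13 kept wells met the set rule but had 3 or more counts of *Myoc* and *Angptl7*, with 8 from mouse 5, 4 from mouse 1 and 1 from mouse 2.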

How the results depend on the processing

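The shares turned with small changes, without passing the threshold that 3 against 3 mice cannot reach. The difference of the share of kept wells (0.44 points) was -0.61 after thinning to 1000 barcodes and -1.60 with at least 4 selection genes, and lay between -5.24 and 5.73 points when single mice were left out. It turned negative without FibCtrl mouse 3, FibCtrl mouse 4 or FibΔZeb1 mouse 5. The difference of the share of fibroblast wells (8.56 points) was -12.1 after thinning, with 3 mice left, and lay between -13.3 and 20.7 without single mice, negative without FibΔZeb1 mouse 5. The genes called between genotypes rose from 0 to 14 without a filter on low counts and to 4 to 57 when 1 mouse was left out (57 without mouse 1, 15 without mouse 2, 4 without mouse 4 and 15 without mouse 5), where the lone mouse of a group is assumed to vary like the others. *Sfrp4* turned to 0.49 with at least 4 selection genes and lay between -1.50 and 2.43 without single mice, *Gdf10* turned to 0.092 with all 6 mice, *Pcolce2* lay between -1.01 and 1.13, *Pi16* between -2.24 and 0.19 and *Inmt* between -1.21 and 9.59 without single mice. *Inmt* had no count in mouse 4, so that 9.59 is no bound. Over all alternatives 7 of 164 log2 fold changes of the 17 genes examined reversed, and *Zeb1* kept its direction in all 10. Genes higher than both classes numbered 41, against 15 of 1586 genes after thinning (8 shared) and 49 to 72 without single mice (72 without mouse 2, 62 without mouse 4), a rule that then asks for fewer mice. The cause of these changes was not tested. The fit of mice with at least 20 wells was not run, since 1 mouse per genotype remained. No paired analysis was possible because the labels give no replicate numbers shared between the genotypes.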
